A study of Mus musculus with 10 samples.

Results

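The mouse genome encodes a large family of zinc finger proteins that carry the symbol Zfp and a number, and most bind DNA through repeated C2H2 fingers, short folds held together by a zinc ion. Many sit side by side in large genomic clusters. The genes described here are those outside 6 cluster windows and are called scattered below. They were taken as the RefSeq protein-coding genes named Zfp plus a number, without Zfp36 and Zfp469, whose start on GRCm38 lay outside 6 cluster windows (chr2:174000000-178000000, chr4:145000000-148000000, chr7:4000000-13000000, chr7:23000000-30000000, chr13:61000000-68000000 and chr17:20000000-24000000). This gave 242 of 367 Zfp-numbered genes and of 21900 protein-coding genes in all, on 20 chromosomes. The windows held 123 more. Scattered means only outside these windows: 117 of the 242 genes had another Zfp gene starting within 200 kb.

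In mRNA, adenosines can carry a methyl group at position N6 (m6A). The mark is written during transcription by a complex of Mettl3 and Mettl14, is typically dense in long exons and near stop codons, and marks many transcripts for faster decay. Many C2H2 proteins with a KRAB domain, a repressor module, recruit Trim28 and the methyltransferase Setdb1 to silence retroelements, and others regulate neural genes, imprints, splicing or translation. In mouse m6A maps, zinc finger transcripts as a class are known for carrying the mark.

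Neural progenitor cells came from the hypothalamus of Mettl14 f/f mouse embryos at embryonic day 14.5, and all grew with FGF2 and EGF at 20 ng/ml each. Mettl14 knockout cells received lentivirus with EGFP and Cre recombinase and control cells lentivirus with EGFP alone, and EGFP-positive cells were sorted after 72 hours. The labels list 4 m6A immunoprecipitation (IP) libraries of knockout cells and 4 of control cells, with 1 input library each of knockout and control cells. Polyadenylated RNA was fragmented and enriched with an m6A antibody. The deposited peak table had 1 column of IP reads and 1 of input reads per peak and named no genotype or library, so knockout was not compared with control, and no value below has an SD over libraries. The table listed 21195 peaks with 72308582 IP reads and 26633390 input reads in all, and depths per library were unknown. With no library values, no test between gene groups was run: counts and medians are descriptions. Of the 5 progenitor markers set for the culture, Sox2 (33 IP and 10 input reads), Nes (90 and 63), Pax6 (419 and 134) and Hes1 (585 and 571) had a peak and Vim had none. Of 9 markers of other cell types, Tubb3 (1116 IP and 422 input reads), Aqp4 (11079 and 2754) and Olig2 (228230 and 43210) had one, and Snap25, Gfap, Mbp, Aif1, Ptprc and Pecam1 had none. These are the reads of each gene's strongest peak, and Aqp4 had 4 peaks. The Sox2 peak also overlapped Sox2ot, and that of Aqp4 also overlapped A830021F12Rik. Reads in the progenitor markers' strongest peaks were thus fewer than in those of Aqp4 and Olig2. A peak needs RNA and the mark, so its absence shows neither to be missing.

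Of the 242 scattered zinc finger genes, 218 held at least 1 m6A peak (90.1%), against 44.2% of all protein-coding genes (9680 of 21900). A peak was counted for a gene if it overlapped the gene by 50% of the shorter of both, and only on the strand with more IP reads. In the cluster windows 103 of 123 genes held a peak (83.7%). Whether a gene without a peak was expressed was not analysed here. The 218 genes held 457 peaks, 2.10 per gene (SD 1.35 across genes), against 1.79 in the windows and 2.01 in all protein-coding genes with a peak. In detail, 85 had 1 peak, 79 had 2 and 54 had 3 or more. As 5 rows were shared by pairs of neighbouring members, these were 452 different peaks, 2.13% of those in the table, with 2.32% of its IP reads and 1.86% of its input reads. At adjusted p under 0.05 with IP over input in the authors' deposited table, 21187 of 21195 peaks were called (100% after rounding). So was the strongest peak of all 218 genes.

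The high share held across gene sizes. Among genes of 10 to 20 kb, 92 of 100 scattered zinc finger genes had a peak (92.0%), against 40 of 47 in the windows (85.1%) and 45.3% of all protein-coding genes. Under 5 kb the scattered genes stood at 10 of 13 (76.9%), against 18.2% of all protein-coding genes. Above 50 kb they stood at 28 of 30 (93.3%), against 66.1%. The median span was 17.4 kb in the scattered genes, against 18.3 kb in the windows and 17.1 kb in all protein-coding genes.

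**Figure D1:**
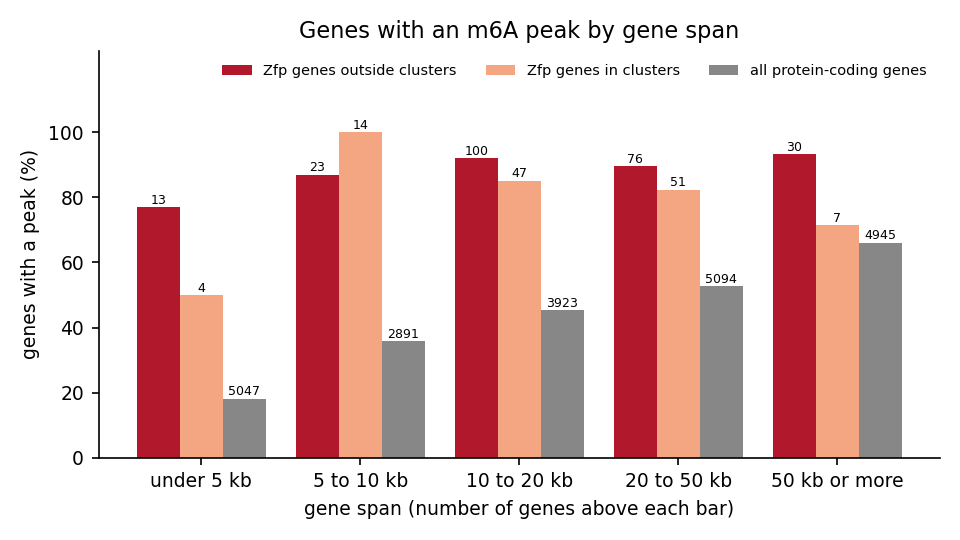
Share of genes with an m6A peak (%, y axis) by gene span (x axis) for Zfp genes outside clusters, Zfp genes in clusters and all protein-coding genes, with the number of genes above each bar. The scattered Zfp genes reach 76.9% under 5 kb and 92.0% at 10 to 20 kb, and stand above all protein-coding genes in every size class.

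The strongest peaks of these genes were high. For a gene's strongest peak the median log2 fold change, IP over input, was 4.08 in the authors' deposited table (17-fold), against 4.10 in the cluster windows and 3.51 in all protein-coding genes with a peak (11.4-fold). It ranged from 1.17 to 6.05 in the authors' deposited table, with quartiles of 3.38 and 4.53. In 116 of the 218 genes it was at least 4 in the authors' deposited table (53.2%), against 30.6% of all protein-coding genes with a peak. The scattered and the clustered genes were thus close in strength, and the difference was not tested. Genes with more peaks have more chances of a strong one. Among genes with a single peak the median was 3.84 in the scattered genes, 3.76 in the windows and 3.12 in all protein-coding genes, in the authors' deposited table.

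**Figure D2:**
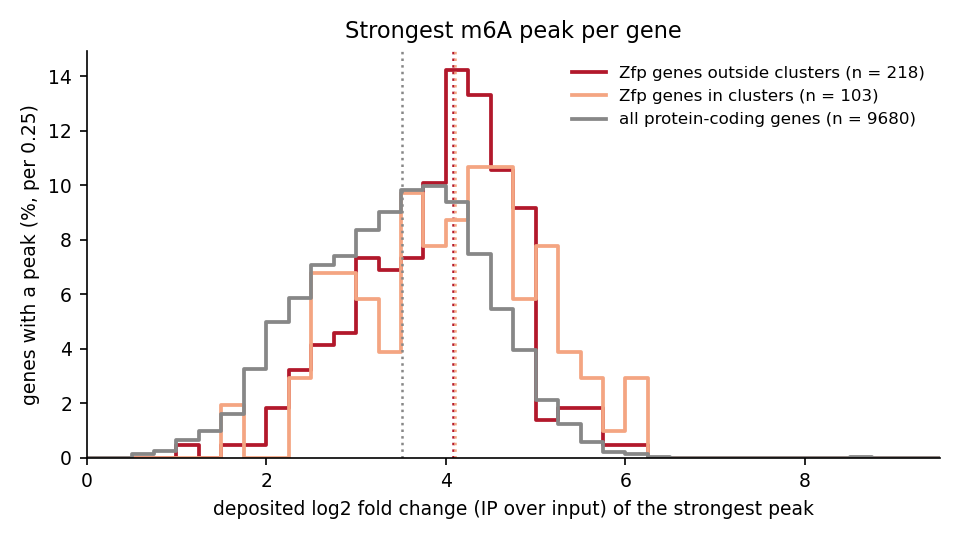
Distribution of the deposited log2 fold change (IP over input, x axis) of each gene's strongest peak, as the percent of genes with a peak per step of 0.25 (y axis). Dotted lines mark the medians, 4.08 for Zfp genes outside clusters, 4.10 for Zfp genes in clusters and 3.51 for all protein-coding genes.

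Read counts describe the same peaks, picked by log2 fold change, and so are not separate support. Across the 218 genes, ratio and log2 fold change had a rank correlation of 0.80 (Spearman). The median ratio of IP to input reads in the strongest peak was 4.22 in the scattered genes, 4.05 in the windows and 3.10 in all protein-coding genes (pseudocount 0.5). By ratio the scattered genes were thus slightly above the windows, while by log2 fold change they were slightly below (4.08 against 4.10 in the authors' deposited table). No depth correction enters these ratios, so values under 1 need not mean depletion, and their exact Clopper-Pearson 95% intervals below cover counting error only. Fewer IP than input reads were found in 27 of the 457 peaks (5.91%), near the 5.98% in the windows, against 11.4% of peaks of all protein-coding genes. In 4 genes this held for the strongest peak. Of these Zfp977 had 8269 IP reads and 9746 input reads, a ratio of 0.848 (95% interval 0.824 to 0.874), and Zfp26 had 4071 IP reads and 4386 input reads, a ratio of 0.928. Zfp410 and Zfp598 are given with their groups. The median strongest peak had 1963 IP reads and 588 input reads, against 1676 IP reads and 668 input reads in all protein-coding genes. In 24 genes the strongest peak rested on fewer than 50 input reads (11%), against 18.4% in the windows and 10.7% in all protein-coding genes with a peak.

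**Figure D3:**
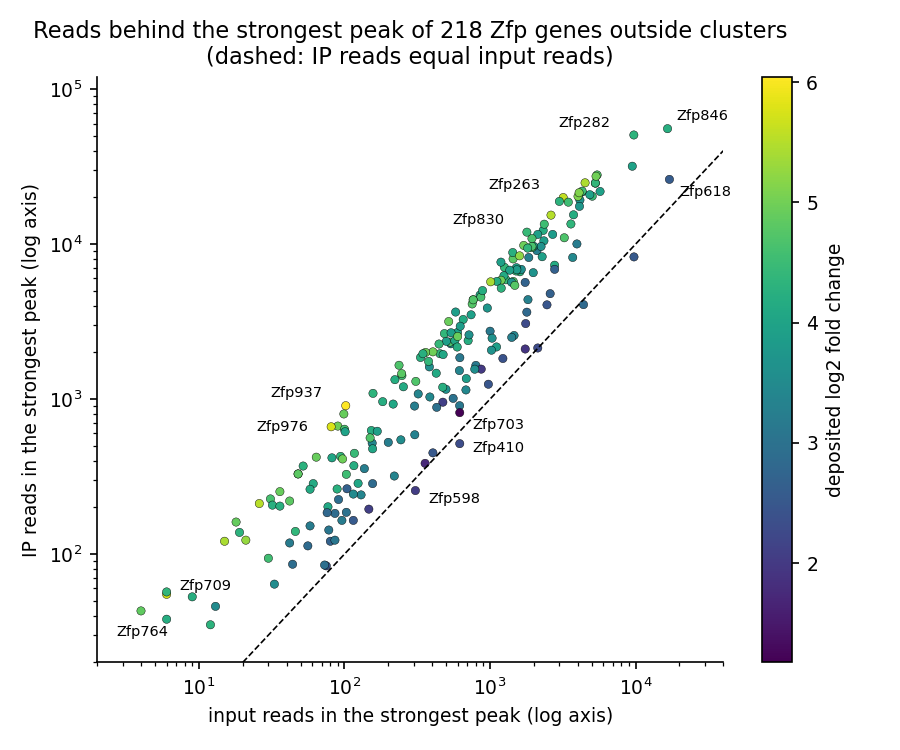
IP reads (y axis) against input reads (x axis) in the strongest peak of each of the 218 Zfp genes outside clusters, both on log axes, coloured by the deposited log2 fold change. The dashed line marks equal reads. Zfp846 and Zfp282 have the most IP reads, while 4 genes lie under the line: Zfp977, Zfp26, Zfp410 and Zfp598.

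Peaks over the start of a gene were about as frequent as in all protein-coding genes with a peak, and more frequent than in the windows. RefSeq start sites on GRCm38.p6 were at hand for 199 of the 242 genes. A peak covered the first 30 transcribed bases of a start in 18 of the 179 of these with a peak (10.1%), against 839 of 7762 protein-coding genes with a peak (10.8%). In the windows it was 5 of 89 (5.62%). In 6 of the 18 that peak was at most 2000 bases long. They were 3.35% of the 179, against 4.32% of the 7762. These 6 are the best placed to show the transcript start under a peak, and their first 30 bases, from RefSeq, are given 5' to 3' on the strand of the gene. Capitals mark GGAC, the commonest core of the m6A motif, found by search on that strand.
Zfp142 (chr1:74587999-74588028, minus strand): cccagtcGGACcatagagatgcagctcccg
Zfp263 (chr16:3744099-3744128, plus strand): cgtcctgactagcggccgttggcttatgac
Zfp57 (chr17:37002525-37002554, plus strand): aaatttctgaccttggcagacagccacttg
Zfp651 (chr9:121760033-121760062, plus strand): agctgctcggccgGGACttgccgcggccct
Zfp768 (chr7:127345285-127345314, minus strand): ctcggggctccaggcactcgaactgggtcg
Zfp830 (chr11:82764345-82764374, plus strand): agactcgcctgagtcctgggcgcaaacatg

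Of these starts, 2 of 6 held GGAC, those of Zfp142 and Zfp651, and their peaks were the weakest of the 6. The Zfp142 start peak had 1102 IP reads and 954 input reads, a ratio of 1.16 (95% interval 1.06 to 1.26), at 0.81 in the authors' deposited table. The Zfp651 start peak had 379 IP reads and 168 input reads, at 1.81 in the authors' deposited table. The start peaks of Zfp768, Zfp57 and Zfp263 stood at 2.70, 3.11 and 3.82 in the authors' deposited table. Most of the Zfp142, Zfp57 and Zfp651 start peaks lay upstream of the start shown, and that of Zfp651 also met the rule for E530011L22Rik. Highest was the start peak of Zfp830, whose single peak ran from the start over 1550 of the 3278 bases of this gene, with 11945 IP reads and 1791 input reads. Its ratio was 6.67 (95% interval 6.35 to 7.01). Over all 253 start sites of the scattered genes 8.70% held GGAC in these 30 bases on the transcribed strand, against 11.7% of 21263 starts of all protein-coding genes. On either strand the shares were 28.5% and 21.9%. A match is not a methylated site, and a start window without one says only that these letters are absent there, while most of each peak lay outside it.

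Zfp937 had the strongest peak of all scattered zinc finger genes. The peak, on chromosome 2 at 150238279 to 150238628 (GRCm38.p6), had 907 IP reads and 102 input reads, a ratio of 8.89 (95% interval 7.24 to 11.02), and the authors' deposited table listed its log2 fold change as 6.05. Next came Zfp976 on chromosome 7 (42613401 to 42613625) with 663 IP reads and 81 input reads, at 5.77 in the authors' deposited table. Both peaks were short and lay in the last 30% of the gene span, and no source used here says how reads matching several similar zinc finger genes were counted. Zfp709, at 5.70 in the authors' deposited table, rested on 55 IP reads and 6 input reads, so its ratio of 9.17 had an interval of 3.95 to 26.1. Also on few input reads were Zfp24, Zfp212 and Zfp300, with 212, 121 and 123 IP reads over 26, 15 and 21 input reads. The authors' deposited table listed them at 5.53, 5.43 and 5.27.

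The other 4 of the 10 strongest were deeply covered. Zfp263, which encodes a factor with KRAB, SCAN and C2H2 domains, had 19969 IP reads and 3184 input reads in a peak of 75 bases near its 3' end (chromosome 16, 3750595 to 3750669). The ratio was 6.27 (95% interval 6.04 to 6.51), at 5.60 in the authors' deposited table. Zfp638 had 15381 IP reads and 2623 input reads, at 5.51 in the authors' deposited table. Zfp938 had 24870 IP reads and 4496 input reads in 100 bases, at 5.44 in the authors' deposited table. For Zfp800 the reads were 5713 IP and 1010 input, at 5.40 in the authors' deposited table, on a strand with 6931 IP reads in all against 5753 on the other. Across the 218 genes the rank correlation of this log2 fold change with input reads was -0.04 (Spearman), a description across genes whose peaks share the same libraries.

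The most IP reads in a single peak belonged to Zfp846, a gene with 1 peak of 4318 bases on chromosome 9, with 55575 IP reads and 16576 input reads. Zfp282, a KRAB zinc finger gene, followed with 50597 IP reads and 9724 input reads. Zfp775 had 33123 IP reads and 11890 input reads in a peak of 24534 bases that overlapped Repin1 as well, so its reads cannot be given to 1 gene. Zfp664, Zfp106, Zfp263, Zfp260 and Zfp62 came next, with 31973, 31804, 29021, 27936 and 27407 IP reads in their largest peaks. In Zfp263 the peak with the most IP reads was not the strongest one: the authors' deposited table listed it at 3.33, against 5.60 for the short one.

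After Zfp462, described next, the most peaks were held by Zfp638 and Zfp142 (7 each), Zfp263, Zfp629, Zfp397 and Zfp764 (6 each) and Zfp704 (5). In Zfp629 a single peak of 1325 bases stood out, with 8824 IP reads and 1432 input reads, a ratio of 6.16 (95% interval 5.83 to 6.52). The authors' deposited table listed it at 4.26, with the other 5 peaks of Zfp629 between 2.14 and 3.05. All 6 peaks of Zfp397 also met the overlap rule for Zscan30, and 5 of the 6 of Zfp764 for 9130019O22Rik or E430018J23Rik. In Zfp704 the strongest peak had 20845 IP reads and 4848 input reads, at 3.95 in the authors' deposited table, and also met the rule for C030034L19Rik.

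Genes of neural development and the neural lineage all held a peak, 15 of 15, beside 90.1% of all scattered zinc finger genes. Their median was 4.03 in the authors' deposited table, and 8 of the 15 were at 4 or more, near the 53.2% of all scattered genes with a peak. Zfp462, a large nuclear protein whose human counterpart is a neurodevelopmental disease gene, had the most peaks of all the scattered genes, 10. Its strongest (chromosome 4, 55060191 to 55072975) had 4552 IP reads and 865 input reads, a ratio of 5.26 (95% interval 4.89 to 5.67), and also covered the predicted gene Gm42289. A run of 6 Zfp462 peaks lay between 45.96% and 49.99% of the gene span, between 1.8 and 3.24 in the authors' deposited table. Zfp521, which promotes neural differentiation of mouse embryonic stem cells, had 5 peaks, led by one of 32372 bases near its 5' end with 670 IP reads and 90 input reads. The authors' deposited table listed it at 4.98.

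Within that group the values spread widely. Zfp24, needed for myelination in mice, and Zfp292 were high, at 5.53 and 4.72 in the authors' deposited table, Zfp24 on 26 input reads. Zfp142, whose human counterpart is a neurodevelopmental disease gene, had 7 peaks from 0.81 to 4.61 in the authors' deposited table. The highest of these had 227 IP reads and 31 input reads. Zfp488, a partner of Olig2 in oligodendrocyte differentiation, had 418 IP reads and 82 input reads, at 4.03 in the authors' deposited table. Zfp503, a striatal development factor, had 7651 IP reads and 1188 input reads, at 3.93 in the authors' deposited table. Its close relative Zfp703 was the lowest of all the scattered genes with a peak, with 818 IP reads and 619 input reads, a ratio of 1.32 (95% interval 1.19 to 1.47). It stood at 1.17 in the authors' deposited table. Zfp335, which is needed for neural progenitor proliferation in mice, had 955 IP reads and 474 input reads in 155 bases, at 2.10 in the authors' deposited table. Its opposite strand held 858 IP reads, so the strand was chosen by a narrow margin. Zfp423, a cerebellar development factor, had 902 IP reads and 303 input reads, at 3.23 in the authors' deposited table.

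Genes of silencing, imprinting and repressor complexes had a peak in 12 of 13, beside 90.1% of all scattered zinc finger genes. Their median was 3.86 in the authors' deposited table, and 4 of the 12 were at 4 or more, beside 53.2% of all scattered genes with a peak. Zfp57 and Zfp445, which maintain methylation at imprinted genes, both had 3 peaks. The strongest of Zfp445 had 24791 IP reads and 5288 input reads, at 4.39 in the authors' deposited table, and that of Zfp57 had 1614 IP reads and 383 input reads, at 3.61. Zfp644, a partner of the histone methyltransferase G9a, stood at 4.46 in the authors' deposited table and Zfp217, a CoREST-associated repressor, at 3.83. Zfp592, Zfp532 and Zfp687, which form a complex with Zmynd8, stood at 3.61, 3.95 and 3.19 in the authors' deposited table. That of Zfp687 had 152 IP reads and 58 input reads and also overlapped Pi4kb. Zfp410, an activator of the remodeller gene Chd4, had 516 IP reads and 619 input reads in its single peak, a ratio of 0.834 (95% interval 0.740 to 0.938). Zfp42 (Rex1), a marker of pluripotent cells, had no peak. Zfp809, which silences retroviruses in mouse embryonic stem cells, was at 4.82 in the authors' deposited table by a peak on the other strand, described below. That peak had 329 IP reads and 48 input reads.

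Promoter and stem cell factors had a peak in 8 of 9, near the 90.1% of all scattered zinc finger genes. At 4 or more in the authors' deposited table were 5 of the 8, beside 53.2% of all scattered genes with a peak. Zfp281, a regulator of pluripotency, had 1 peak, of 3591 bases, with 21694 IP reads and 4283 input reads, at 4.03 in the authors' deposited table. Zfp260 reached 4.71, while Zfp148, Zfp131 and Zfp143, a factor bound at many promoters, stood at 3.47, 3.42 and 3.39 in the authors' deposited table. Zfp296, a stem cell factor, had no peak.

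Zinc finger genes that act on RNA, translation or protein tags had a peak in 12 of 14, near the 90.1% of all scattered ones. Their median was 3.96 in the authors' deposited table, and 5 of the 12 stood at 4 or more, beside 53.2% of all scattered genes with a peak. Zfp638, an RNA-binding nuclear protein, had 7 peaks, and only 3 of them exceeded 4 in the authors' deposited table. Zfp451, a SUMO ligase, stood at 4.78, Zfp830 at 4.45, and Zfp207, a spindle assembly protein, at 4.38 in the authors' deposited table. That Zfp207 peak had only 140 IP reads and 46 input reads. The other Zfp207 peak, with 777 IP reads and 315 input reads, stood at 3.72 in the authors' deposited table. Zfp106, an RNA-binding protein needed for motor neuron function in mice, had 31804 IP reads and 9490 input reads, at 3.98 in the authors' deposited table. Among the lower values was Zfp598, the ubiquitin ligase that senses collided ribosomes. It had 257 IP reads and 307 input reads, a ratio of 0.837 (95% interval 0.707 to 0.991). Zfp622, a maturation factor of the large ribosomal subunit, had 2105 IP reads and 1745 input reads, at 1.93 in the authors' deposited table, and Zfp593 stood at 2.67. Zfp346 and Zfp706 had no peak. The weakest 5 of all were Zfp703, Zfp523, Zfp622, Zfp771 and Zfp598, from 1.17 to 2.05 in the authors' deposited table.

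**Figure D4:**
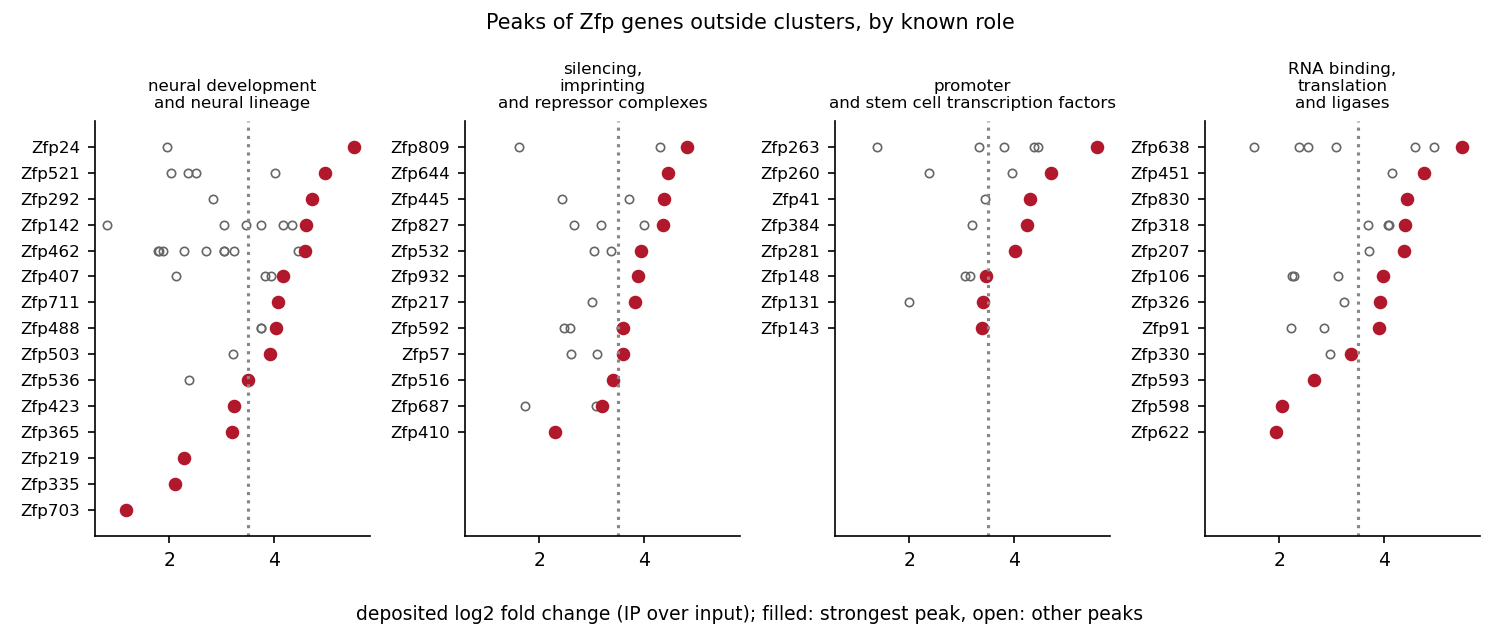
Deposited log2 fold change (x axis) of every peak of the Zfp genes outside clusters with a known role, 1 row per gene, with the strongest peak filled and the others open. The dotted line marks 3.51, the median of the strongest peak over all protein-coding genes; among strongest peaks Zfp703 is lowest at 1.17, among all peaks the start peak of Zfp142 at 0.81, and Zfp638, Zfp24 and Zfp263 pass 5.

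Partners of KRAB zinc finger silencing, none of them a Zfp gene, had a peak in 10 of 12, beside 44.2% of all protein-coding genes. Of these 10, 5 were at 4 or more in the authors' deposited table, beside 30.6% of all protein-coding genes with a peak. Trim28 and Cbx3 had no peak. Setdb1 had 6036 IP reads and 1936 input reads and stood at 3.87 in the authors' deposited table. Zmynd8 stood at 4.01 and Adnp at 3.90 in the authors' deposited table. The lowest was Cbx5, a heterochromatin protein gene, with 5608 IP reads and 6470 input reads, at 2.07 in the authors' deposited table.

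The peaks leaned to the 3' side of the gene but were less concentrated at its very end than in other genes. Of the 457 peaks, 25.8% had their midpoint in the last of 10 equal bins of the gene span, against 26.9% in the windows and 36.9% in all protein-coding genes. Bins 8 and 9 together held 31.7% of them, against 42.3% and 20.7%. The last 3 bins held 57.5% of peaks in the scattered genes, 69.2% in the windows and 57.6% in all protein-coding genes. The 5' bin held 5.91%, against 9.35% in all protein-coding genes, and peaks there were weaker (median 2.67 in the authors' deposited table) than those in the last bin (3.24). In all protein-coding genes they were weaker too, at 2.73 against 2.99 in the authors' deposited table. In the windows the order was reversed, at 4.55 on 6 peaks against 3.44 in the authors' deposited table. The midpoint lay a median of 4139 bases from the 3' end, against 2700 in the windows and 5195 in all protein-coding genes. Gene spans include introns, and exons, stop codons and coding parts were not analysed here.

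**Figure D5:**
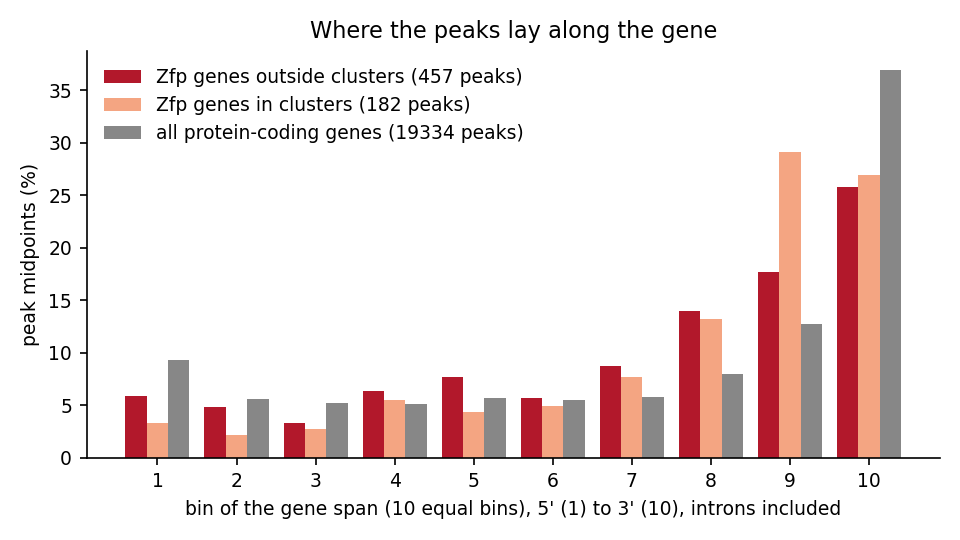
Percent of peak midpoints (y axis) in each of 10 equal bins of the gene span from the 5' end (1) to the 3' end (10), introns included, for the 3 gene groups. The Zfp genes outside clusters have 25.8% in the last bin, against 36.9% in all protein-coding genes, and more in bins 8 and 9.

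The strongest peaks were longer than in all protein-coding genes, as were those in the windows. Their median length was 1903 bases, against 1703 in the windows and 1187 in all protein-coding genes. Over all peaks the medians were 1225, 1263 and 925 bases, so here the windows were slightly longer. Of the 457 peaks, 48 spanned over 10000 bases (10.5%), against 3.26% in the windows and 12.5% in all protein-coding genes. Lengths are on the genome, where gene spans include introns. Peaks of 1 gene often differed in strength. In the 133 genes with 2 or more peaks the strongest exceeded the weakest by a median log2 difference of 1.27, and by 2 or more in 33 genes, in the authors' deposited table. No value for other genes stands beside these, so they show no trait particular to the scattered genes. Genes with more peaks also have more room for a wide difference. The number of peaks rose little with gene span (Spearman's rho 0.14 across 218 genes, a description).

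Scattered zinc finger genes with another Zfp gene close by held peaks more often than solitary ones. Of 117 genes with another Zfp gene starting within 200 kb, 111 had a peak (94.9%), against 107 of 125 with no such neighbour (85.6%). The median strongest log2 fold change was 4.19 with a neighbour, against 4.03 without, in the authors' deposited table. Peaks over 10000 bases made up 3.03% of peaks with a neighbour, against 18.1% without, and the median gene span was 15.8 kb with a neighbour, against 21.6 kb without. At the window borders the nearest genes outside were Zfp971 (23.3 kb away, 4.53 in the authors' deposited table) and Zfp14 (36.4 kb, 4.07). The nearest inside were Zfp568 (16 kb, 2.90 in the authors' deposited table) and Zfp446 (23.8 kb, 3.53).

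The overlap rule left some peaks with more than 1 gene or on the wrong strand. In 19 of 218 genes the strongest peak also belonged to another RefSeq gene by the same rule. Strand could be checked against RefSeq starts in 179 genes and did not match in 5 of them, Zfp174, Zfp319, Zfp341, Zfp39 and Zfp809. The 3 peaks counted for Zfp809 (770 IP reads) lay on the strand of Zfp599, which overlaps it, and the strand of Zfp809 itself held 214 IP reads in 1 peak. Both peaks counted for Zfp174 likewise belonged to Zfp597. The values of these 5 genes are those of the other strand. Peaks lay on both strands in 25 genes, and in 6 of these the chosen strand had under 2 times the IP reads of the other. The lowest overlap counted was 51.9% and the highest not counted 48.3%.

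No peak was counted for 24 of the 242 genes, and no peak of either strand touched 23 of these. The exception was Zfp692, touched by a peak over 7.53% of the shorter of both. Beside Zfp42, Zfp296, Zfp346 and Zfp706 they were Zfp92, Zfp185, Zfp345, Zfp352, Zfp358, Zfp366, Zfp414, Zfp474, Zfp512, Zfp541, Zfp616, Zfp648, Zfp663, Zfp692, Zfp735, Zfp750, Zfp819, Zfp936, Zfp957 and Zfp996.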

How the data were processed

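The authors' deposited counts are whole reads per peak, in 1 IP and 1 input column that name no library or genotype, per the file headers. The deposited log2 fold change, the p-value and adjusted p-value, and the score are the authors' own, and no source used here gives their test or normalization. The log2 fold change exceeded the log2 ratio of reads (pseudocount 0.5) by a median of 1.88. Minus log2 of the deposited adjusted p gave the score in 21195 of 21195 rows (tolerance 1e-06). Per the submitters' processing notes, bcl2fastq 2.17.1.14, Trimmomatic 0.32, STAR 2.5.2a and the build GRCm38.p6 were used, among others. The planned edgeR test of knockout against control was not made, since no column belongs to a library. Peaks were assigned to RefSeq GRCm38.p6 gene spans in Python 3.11.15 with pandas 2.3.3, and the assignment was tested on simulated peaks. Intervals of read ratios and shares are exact Clopper-Pearson 95% intervals (scipy 1.17.1), and those of medians are set by ordered values. The members and role lists were chosen with earlier results of these data known. Named were the 10 strongest, the 8 with most peaks (ties by IP reads), the 8 with most IP reads in a peak, the 5 weakest and the role lists, with further genes where a count turned on them.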

Additional observations from a re-analysis of the deposited data

How the results depend on the processing

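The share of genes with a peak, the median strongest log2 fold change, the peaks per gene, the share of peaks in the last bin, the share with fewer IP than input reads and the median read ratio were each recomputed under 9 alternative settings, plus a pseudocount of 5 for the ratio. A strand taken from the RefSeq starts was added after the data were seen. Of 61 values, 59 stayed within the 95% interval (for peaks per gene, 1 SD) of the reported one, and 2 did not. For peaks per gene that range, 0.75 to 3.45, is the spread across genes. A mean over these genes could hardly leave it, so staying inside says little. The other intervals are taken over genes or peaks, not over libraries. Keeping both strands, 1 of the settings, could not change the share of genes with a peak, since the rule always keeps 1 strand. All settings draw on the same deposited peaks, so the count of values that stayed is no independent support. The share of genes with a peak, 90.1%, was 84.7% with only peaks over a single RefSeq gene and 85.6% in genes with no Zfp gene within 200 kb. The median log2 fold change in the authors' deposited table ranged from 3.94 with at least 50 input reads, against 3.42 in all protein-coding genes under that minimum, to 4.09. The share of peaks in the last bin ranged from 24.0% to 28.8%. No paired analysis was possible because no column belongs to a replicate, and no replicate could be left out. The strength of peaks on few reads, such as that of Zfp709, is limited by counting error.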

Other observations

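A few peaks of the scattered zinc finger genes packed many reads into about 100 bases. The Zfp282 peak on chromosome 6 (47880292 to 47880391) had 506 IP reads and 97.2 input reads per base, rank 19 of all 21195 peaks by IP reads per base. The median was 0.957 IP reads per base in peaks of the scattered genes and 0.943 in all peaks. The measure divides by peak length on the genome. That length was 100 bases for this peak, against a median of 1225 over peaks of the scattered genes. The values thus compare peaks of unlike length. The other 2 peaks of Zfp282 had 880 and 528 IP reads over 1150 and 1025 bases, so nearly all of its IP reads lay in this short peak at 10% of the gene span. Zfp263 and Zfp938 had 266 and 249 IP reads per base in short peaks near the 3' end.

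Zfp644 on chromosome 5 had a pair of short peaks with nearly equal reads at opposite ends of the gene. One of 100 bases (106619540 to 106619639), near the 3' end, had 20375 IP reads and 5037 input reads. The other, a little longer (106696256 to 106696380) and near the 5' end, had 20390 IP reads and 5064 input reads. They lay 76616 bases apart, and the authors' deposited table listed them at 4.46 and 4.44. Among 97 pairs of peaks of 1 scattered gene with at least 1000 IP reads each, this was the only pair equal within 1% in both counts. In all protein-coding genes 5 of 7979 such pairs were.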
